A study of Mus musculus with 36 samples.

Results

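Olfactory receptor pseudogenes were taken by name: every gene whose symbol in the mouse annotation GENCODE vM21 is Olfr, a number and -ps, with or without a final number. They numbered 299 of 57010 gene identifiers in the count files and 299 of 1406 receptor symbols. The name alone chose them, and no measured value did. RNA on ribosomes that carry phosphorylated ribosomal protein S6 (pS6) was immunoprecipitated from the olfactory epithelium of wild-type male C57BL/6J mice at 8 weeks of age and sequenced. Mice sat for 4 h in chambers free of odor and then received filter paper with 10 µL of odorant, or blank paper as the no-odor control, for 90 min. The 36 libraries fall into 12 groups of 3 mice and 3 sets, and the labels name the set as the batch. The AD set holds controls, acetophenone, decanal and the 1:1 acetophenone-decanal mixture. The OC set holds controls, octanal, cis-3-hexenol and their 1:1 mixture, and the FM set holds controls and commercial Floral, Mint and Floral-Mint fragrance blends. The volume was 10 µL for single odors, mixtures and blends alike, so a 1:1 mixture held less of each component. Between a 1:1 mixture and its components, mixing therefore cannot be told apart from dose. Whole tissue was homogenized, so the libraries are bulk samples of pS6-bound RNA.

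Each mature olfactory sensory neuron expresses a single receptor gene out of a very large family, and firing raises pS6 in that neuron, so RNA of its receptor is pulled down more. A receptor pseudogene is a member of the family whose reading frame is broken, usually by a stop codon or a frameshift. Neurons can choose such a gene, but without a working receptor protein the feedback that fixes the choice fails, and the cell usually moves on to another receptor. A polymorphic pseudogene is one that is broken in the reference strain and intact in some other strains.

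The name and the annotation disagreed for part of the 299 genes. GENCODE vM21 lists 199 as unprocessed pseudogenes, 45 as polymorphic pseudogenes, 14 as transcribed unprocessed pseudogenes and 41 as protein coding. The 41 protein-coding genes had a longest open reading frame of 317 codons in the median (297 to 364), beside 314 for the 1093 protein-coding receptors without -ps, here called intact receptors. In 39 of the 41 the frame reached 305 codons, the 1st percentile of the intact receptors. The median was 233 codons for the polymorphic, 192.5 for the transcribed unprocessed (highest 578) and 70 for the unprocessed class. RefSeq, in its GRCm38.p6 annotation, lists 32 of the same 41 genes as pseudogenes and 2 as protein coding, and 7 were not matched. The 299 genes are therefore called -ps genes below, and "annotated pseudogene" is kept for the 258 that GENCODE does not list as protein coding.

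Of the annotated pseudogenes, 3 came to differ between odor and control, and the transcripts show where the frame of an intact receptor is first broken. Long open frames remained in them, with a longest of 288 codons in Olfr1117-ps1, 210 in Olfr753-ps1 and 578 in Olfr1372-ps1. How much of the receptor these frames hold was not tested. Olfr1117-ps1 (chr2:87283212-87285275, plus strand, GRCm38) is 96.7% identical to the coding sequence of Olfr1118, and a stop codon stands at codon 36 of that frame. In the lines that follow, capitals mark the stop codon and the codon of Olfr1118 that it faces.
Olfr1117-ps1: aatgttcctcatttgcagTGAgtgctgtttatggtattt
Olfr1118: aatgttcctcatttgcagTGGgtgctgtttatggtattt
Olfr753-ps1 (chr17:37168313-37185730, minus strand) is 96.5% identical to the coding sequence of Olfr92, with a stop codon at codon 98 of its 312 codons. Capitals again mark the facing codons.
Olfr753-ps1: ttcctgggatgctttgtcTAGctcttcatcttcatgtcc
Olfr92: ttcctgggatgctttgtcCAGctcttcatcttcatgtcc
Olfr1372-ps1 (chr11:52154722-52168159, minus strand) is 97.5% identical to the coding sequence of Olfr1383 and lacks 2 of its bases at codon 286 of 311, near the end of the frame. Capitals mark the missing bases in Olfr1383.
Olfr1372-ps1: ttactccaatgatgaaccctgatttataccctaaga
Olfr1383: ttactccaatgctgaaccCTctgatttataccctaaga

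For 6 of the protein-coding -ps genes described below, the stretch most characteristic of the family is shown. It lies in a longest open reading frame of 309 to 344 codons. Such a frame runs from a start codon to the first stop codon, so it holds no stop codon inside by construction. Olfactory receptors carry Asp-Arg-Tyr at the inner end of the third membrane-spanning segment, a motif that couples the receptor to its G protein. Capitals mark the Asp-Arg-Tyr codons in the frame of the longest open reading frame.
Olfr718-ps1: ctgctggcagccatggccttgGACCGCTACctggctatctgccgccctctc
Olfr1192-ps1: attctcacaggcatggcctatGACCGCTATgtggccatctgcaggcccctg
Olfr1274-ps: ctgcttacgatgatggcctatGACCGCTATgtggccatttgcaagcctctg
Olfr1224-ps1: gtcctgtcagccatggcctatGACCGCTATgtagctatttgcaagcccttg
Olfr764-ps1: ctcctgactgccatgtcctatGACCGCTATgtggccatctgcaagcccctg
Olfr766-ps1: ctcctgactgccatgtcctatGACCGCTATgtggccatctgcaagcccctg
The first codon of the motif was codon 146 in Olfr718-ps1, 119 in Olfr1192-ps1 and Olfr1274-ps, 120 in Olfr1224-ps1 and 135 in Olfr764-ps1 and Olfr766-ps1. Olfr764-ps1 and Olfr766-ps1 have the same letters here and are near-identical copies. Any codons for Asp, Arg and Tyr in a row between codons 100 and 159 were counted as the motif, which stood in frame in 26 of 41 protein-coding -ps genes (63.4%) and in 850 of 1093 intact receptors (77.8%).

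The depth of a library was 16.04 to 26.39 M counts in all. Receptor symbols received 39132 to 168374 of them and -ps genes 1431 to 8442. All 8 fixed markers of mature olfactory sensory neurons, such as Omp and the olfactory channel subunit Cnga2, were present in every group, and none of the markers fixed for other cell types was at 0. The markers summed to 8470 to 9930 CPM (counts scaled to a library of 1 M) in AD controls, 7460 to 9870 in OC controls and 12300 to 14200 in FM controls. In every odor group all 3 libraries lay above the controls of the set, with the highest value at 27000 CPM under octanal. Red blood cell markers (3 globin and heme genes) summed to 46700 to 55300 CPM in OC controls and to 4420 to 17200 in the 3 odor groups of that set. Bone and osteoclast markers summed to 1540 to 2470 CPM in OC controls and to 393 to 853 in the same odor groups, and neutrophil markers to 314 to 388 and 83.1 to 191. In the AD set red blood cell markers summed to 9360 to 12400 CPM in controls, 23300 to 25400 with decanal and 1510 to 7870 with acetophenone. Bone and osteoclast markers there summed to 933 to 1090 CPM in controls and 371 to 558 with acetophenone, and sustentacular markers to 937 to 1140 in controls and 606 to 702 with decanal. In bulk tissue, fewer cells of a type and less RNA per cell cannot be told apart, and the part of these shifts in the results below was not tested.

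Counts on the -ps genes fell almost wholly on the protein-coding ones. They took 93.3% of all counts on -ps genes, the polymorphic pseudogenes 4.48%, the transcribed unprocessed 1.83% and the unprocessed 0.404%. Annotated exon length also differed, with medians of 3344, 963, 1484.5 and 752 bases for these classes in turn, beside 2976 for intact receptors. A short gene model can miss reads of the same transcript, which a scale per kilobase does not restore. The part of this in the counts was not tested. Of the 199 unprocessed pseudogenes, 143 had no count in any of the 36 libraries, and the highest, Olfr1147-ps1, had 90 counts in all. Among the 41 protein-coding -ps genes, 2 (Olfr573-ps1 and Olfr625-ps1, named after their values were seen) had no count. Per kilobase of exon, the median control level was 0.309 CPM for intact receptors, 0.247 for protein-coding -ps genes, 0.0386 for polymorphic, 0.0133 for transcribed and 0 for unprocessed pseudogenes. A library with no count of a gene allows up to 3 counts by chance, so these genes were not detectable at this depth.

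**Figure D1:**
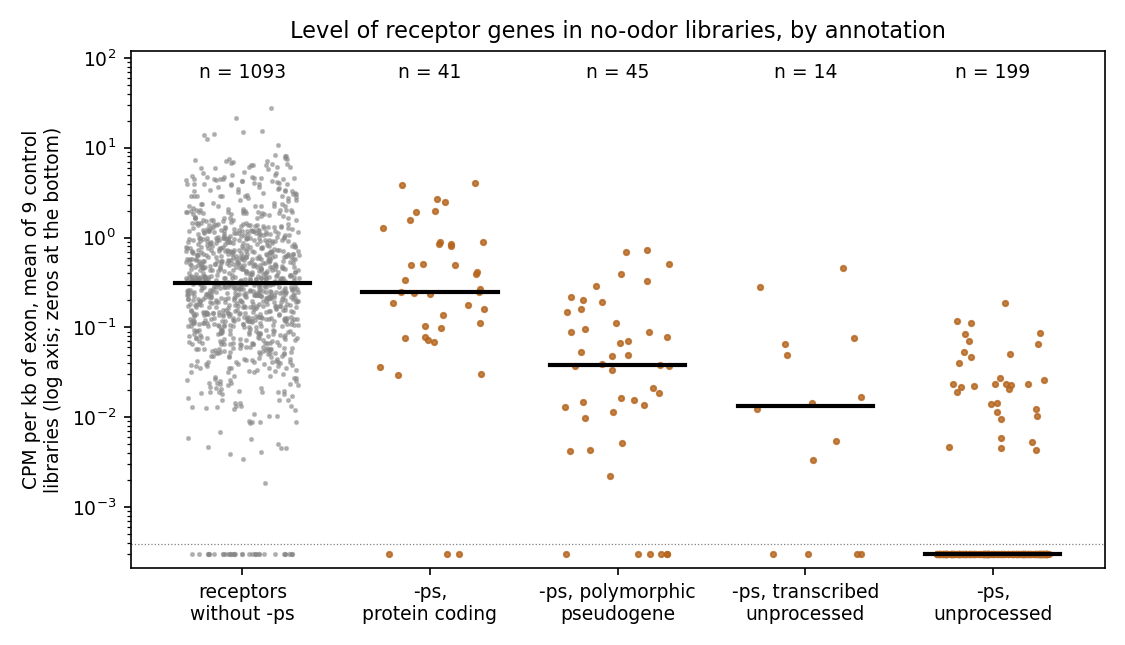
Level of each receptor gene in the no-odor libraries (CPM per kilobase of exon, mean of 9 control libraries, log axis, zeros drawn at the bottom), by GENCODE class, with a bar at the median. The medians of protein-coding -ps genes and intact receptors are 0.247 and 0.309 CPM per kilobase, and their highest values 4.02 and 27.7, while most unprocessed pseudogenes sit at 0.

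In the controls the most abundant -ps gene was Olfr329-ps, at 11.0 ± 3.86 CPM (SD over 9 control libraries, 5.2 to 15.2). Olfr1224-ps1 followed at 10.4 ± 7.89 and Olfr1326-ps1 at 9.08 ± 3.4, then Olfr1192-ps1 at 6.68 ± 1.62 and Olfr1274-ps at 6.58 ± 1.05. Olfr1369-ps1 had 6.34 ± 3.75, Olfr364-ps1 5.78 ± 9.64 and Olfr175-ps1 4.86 ± 0.908 CPM. Neighbours in this order overlapped in their libraries. All 8 are protein coding in GENCODE. On the scale per kilobase the order changed, with Olfr175-ps1 at 4.02 and Olfr1224-ps1 at 3.85 CPM per kilobase ahead of Olfr329-ps at 2.7 and Olfr1326-ps1 at 2.5. The most abundant annotated pseudogenes were Olfr1372-ps1 at 2.74 ± 2.96 CPM, Olfr947-ps1 at 1.71 ± 0.687 and Olfr75-ps1 at 1.23 ± 0.407, of which Olfr75-ps1 was named after its values were seen.

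A single control library set the level of a few of these genes. In the AD controls Olfr364-ps1 read 31.4 CPM in replicate 1 and 2.34 and 2.17 in replicates 2 and 3. Olfr1224-ps1 read 30.8 CPM in the same library and 11.0 and 10.4 in the other two. Odor calls that rest on this library are given below with and without it. The order of abundance above, with the places of Olfr364-ps1 and Olfr1224-ps1 in it, and the AD control share below include it.

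Odor groups were set against the same set's controls with edgeR's quasi-likelihood test, and a gene was called at a Benjamini-Hochberg adjusted p under 0.05 over all genes tested. A filter on low counts left 43, 42 and 44 -ps genes in the AD, OC and FM sets. Over the 3 sets these were 48 genes: 34 of the 41 protein-coding ones, 12 of 45 polymorphic, 2 of 14 transcribed and 0 of 199 unprocessed. All 3 controls were at the filter's level for 30, 23 and 32 of them, so some genes were tested only because an odor group was high. Among genes called higher, those not at that level in all 3 AD controls were Olfr105-ps, Olfr764-ps1 and Olfr1372-ps1. In the OC controls they were Olfr764-ps1, Olfr766-ps1, Olfr1174-ps, Olfr1175-ps, Olfr709-ps1 and Olfr1117-ps1. The p of such a gene and the counts over tested genes are a description. Called in at least 1 of the 9 odor comparisons were 22 of 48 -ps genes (45.8%), beside 445 of 921 intact receptors (48.3%) and 11376 of 20476 genes (55.6%). By class, 19 of 34 protein-coding -ps genes and 3 of 14 annotated pseudogenes were called.

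**Figure D2:**
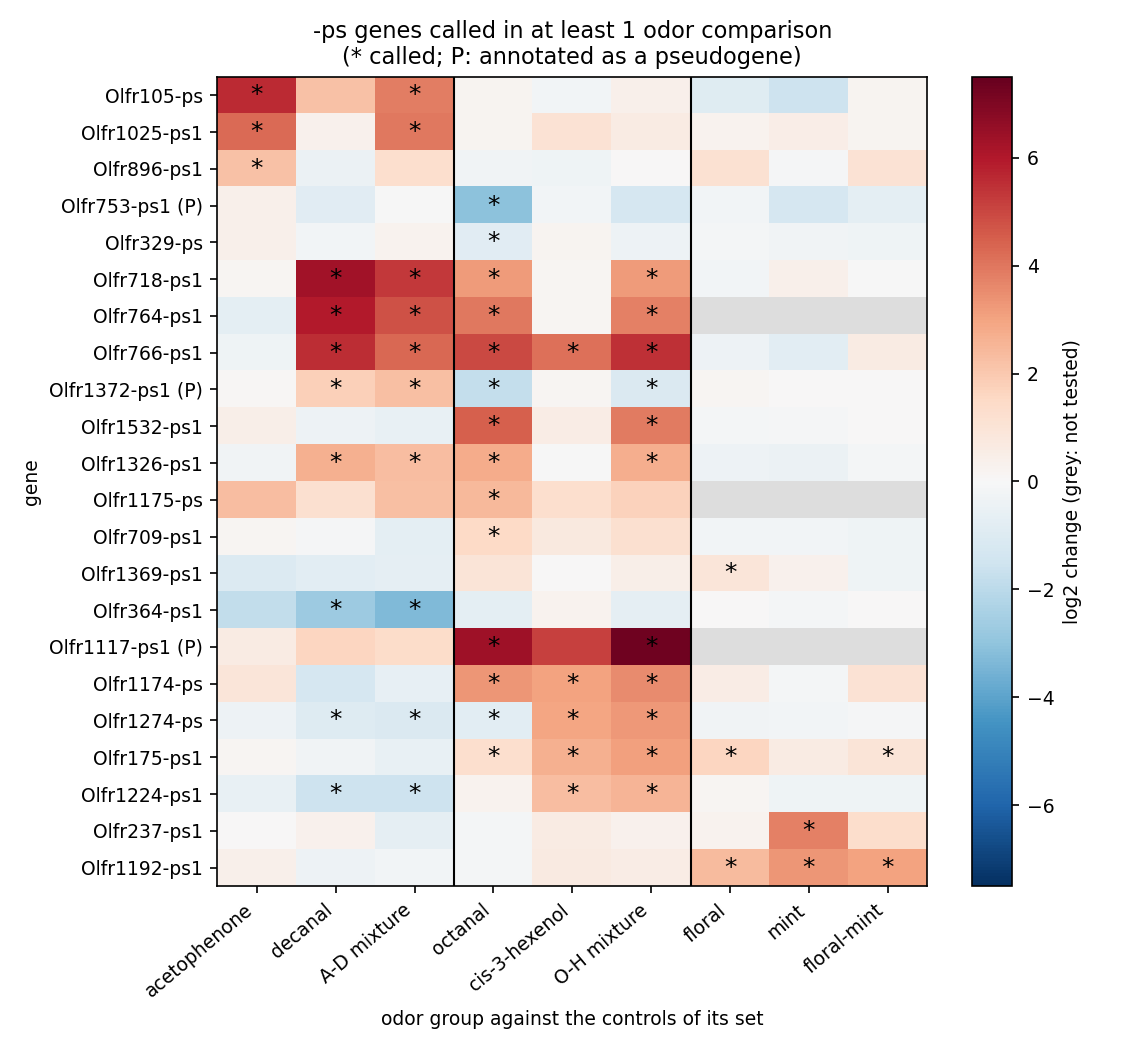
Log2 change of the 22 -ps genes called in at least 1 odor comparison (rows) in each odor group against the controls of its set (columns, black lines between sets), red for higher and blue for lower. Stars mark calls, grey marks genes not tested in that set and P marks annotated pseudogenes. Olfr718-ps1, Olfr764-ps1, Olfr766-ps1 and Olfr1326-ps1 are starred in the aldehyde columns (Olfr766-ps1 also with cis-3-hexenol), and Olfr1192-ps1 in the 3 fragrance columns. OC controls of Olfr1117-ps1 are at 0 counts, so its fitted change there depends on the prior count and is no measure of size.

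Acetophenone, an aromatic ketone, raised 3 -ps genes of 43 tested and lowered none, where 5.49% of all genes and 13.6% of intact receptors were called. Olfr1025-ps1 read 1.71, 1.63 and 1.95 CPM in the controls and 47.5, 24.7 and 30.6 with acetophenone (log2 change 4.27, SE 0.397, edgeR adjusted p 4.66e-05). The groups do not overlap. Its intact neighbour by number, Olfr1026, is also its closest receptor by sequence and rose as well, from a mean of 1.02 to 36.1 CPM (log2 change 5.14, SE 0.312, edgeR adjusted p 1.04e-06). Olfr896-ps1 read 1.15, 0.749 and 0.956 CPM in controls and 5.46, 5.03 and 2.78 with acetophenone (2.21, SE 0.52, edgeR adjusted p 0.0247). Both intact neighbours of Olfr896-ps1 rose with it, Olfr895 by 3.81 and Olfr898 by 4.02 on the log2 scale. Olfr105-ps read 0.278, 0.0441 and 0 CPM in controls and 7.43, 7.18 and 2.44 with acetophenone (5.61, SE 1.17, edgeR adjusted p 0.0135). It was near the limit of detection in controls, at 7, 1 and 0 counts. Olfr105-ps passed the filter on low counts only through odor libraries, so its p is a description. Without control replicate 2 or without control replicate 3, Olfr1025-ps1 alone stayed called, 1 gene in place of 3. Without acetophenone replicate 2, the calls of Olfr105-ps (adjusted p 0.0511) and Olfr896-ps1 (0.0979) were lost too. Olfr896-ps1 also lost its call when libraries were scaled to the median receptor gene (adjusted p 0.0678), and in 5 of 6 omissions of a control or acetophenone library (adjusted p 0.0527 to 0.113).

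Decanal, a straight-chain aldehyde, gave the largest log2 rise of that comparison among the 910 receptor genes tested, that of Olfr718-ps1. The gene read 3.1, 1.63 and 2.56 CPM in controls and 176, 213 and 183 with decanal (log2 change 6.28, SE 0.206, edgeR adjusted p 3.71e-10). Olfr718-ps1 has no near-identical copy, and its closest receptor by sequence, Olfr1198, was not called (0.17, SE 0.451). Olfr764-ps1 read 0.0795, 0.485 and 0.304 CPM in controls and 14.5, 22.4 and 16.9 with decanal (5.95, SE 0.415, edgeR adjusted p 1.13e-06). Olfr764-ps1 passed the filter on low counts only through decanal and mixture libraries, so its p is a description. Its copy Olfr766-ps1 went from 0.835, 0.573 and 0.652 CPM to 20.9, 48.0 and 27.6 (5.53, SE 0.397, edgeR adjusted p 1.39e-06). Reads that fit both copies are shared between them, so the pair is not 2 independent measurements. Olfr1326-ps1, on chromosome X, rose from a mean of 12.3 ± 1.84 CPM to 78.9 ± 13.7 (2.68, SE 0.25, edgeR adjusted p 2.08e-05), and it has no near-identical copy. In all, 5 of 43 -ps genes were higher and 3 lower, where 22.3% of all genes and 14.3% of intact receptors were called. The fifth was Olfr1372-ps1, an annotated pseudogene described further on.

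The 3 -ps genes lower with decanal were Olfr1224-ps1, Olfr1274-ps and Olfr364-ps1, with smaller changes. Olfr1274-ps read 5.72, 8.16 and 5.86 CPM in controls and 2.15, 3.68 and 4.24 with decanal (-0.97, SE 0.286, edgeR adjusted p 0.0259). That call was lost without control replicate 2 (adjusted p 0.109), decanal replicate 1 (0.101) or decanal replicate 2 (0.0516). Olfr1224-ps1 read 30.8, 11.0 and 10.4 CPM in controls and 5.47, 5.37 and 7.29 with decanal (-1.53, SE 0.408, edgeR adjusted p 0.0158). Without control replicate 1 the change of Olfr1224-ps1 was -0.83 and no longer called (adjusted p 0.107), and without decanal replicate 1 or 2 the adjusted p was 0.0612 or 0.0599. Olfr364-ps1 overlapped its controls, and its change of -2.73 (SE 0.83, edgeR adjusted p 0.0298) became -0.33 (adjusted p 0.685) without that library. Olfr365, the intact copy of Olfr364-ps1, was lower by -1.25 (SE 0.264, edgeR adjusted p 0.00411). Leaving out control replicate 1 brought the count of called -ps genes from 8 to 6, and leaving out decanal replicate 2 brought it to 5.

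The acetophenone-decanal mixture raised 7 -ps genes and lowered 3 of 43, where 21.4% of all genes and 19.7% of intact receptors were called. Among the 7 were the genes raised by each component: Olfr1025-ps1 and Olfr105-ps from the acetophenone group, and Olfr718-ps1, Olfr764-ps1, Olfr766-ps1, Olfr1326-ps1 and Olfr1372-ps1 from the decanal group. Olfr896-ps1 was not called. Olfr718-ps1 read 97.8, 82.2 and 108 CPM with the mixture (log2 change 5.29, SE 0.2, edgeR adjusted p 2.61e-09), all between the controls and the decanal libraries. Against decanal alone, Olfr718-ps1 was lower in the mixture by -0.99 (SE 0.156, edgeR adjusted p 0.00944). The mixture also held less decanal, so dose and mixing cannot be told apart here. Olfr1025-ps1 read 25.2, 20.5 and 37.5 CPM with the mixture, and was higher than with decanal alone by 3.67 (SE 0.39, edgeR adjusted p 0.000371). These were the 2 -ps genes called between mixture and decanal, where 0.287% of all genes and 6.11% of intact receptors were called. Without decanal replicate 2 or without mixture replicate 2 Olfr718-ps1 was no longer called, which left 1 gene.

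Against acetophenone alone, the mixture was higher for 5 and lower for 2 of 43 -ps genes, where 25.7% of all genes and 18.0% of intact receptors were called. The 5 were the decanal genes, led by Olfr718-ps1 (5.16, SE 0.198) and Olfr764-ps1 (5.51, SE 0.44). Lower were Olfr1532-ps1 (-0.98, SE 0.311, edgeR adjusted p 0.0332) and Olfr947-ps1. Olfr947-ps1 is a polymorphic pseudogene with no near-identical copy. It read 2.98, 2.51 and 2.53 CPM with acetophenone and 1.23, 1.19 and 0.85 with the mixture (-1.29, SE 0.429, edgeR adjusted p 0.0398). No -ps gene departed from the sum of the component log2 changes by the edgeR test of the interaction, where 0.241% of all genes and 0.807% of intact receptors were called. At an unadjusted p under 0.05 there were 5, and DESeq2 called 1.

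Lower in the mixture than in controls were Olfr1274-ps (-1.11, SE 0.287, edgeR adjusted p 0.0144), Olfr1224-ps1 (-1.54) and Olfr364-ps1 (-3.29). Without control replicate 1, Olfr1224-ps1 stood at -0.84 (adjusted p 0.105) and Olfr364-ps1 at -0.89 (adjusted p 0.223), and neither was called. Olfr1274-ps lost its call without control replicate 2 (adjusted p 0.0683) or mixture replicate 2 (0.0591). Olfr105-ps, at 3.43, 1.61 and 0 CPM with the mixture, overlapped its controls, and its call was lost in 4 of 6 omissions of a control or mixture library (adjusted p 0.057 to 0.134).

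**Figure D3:**
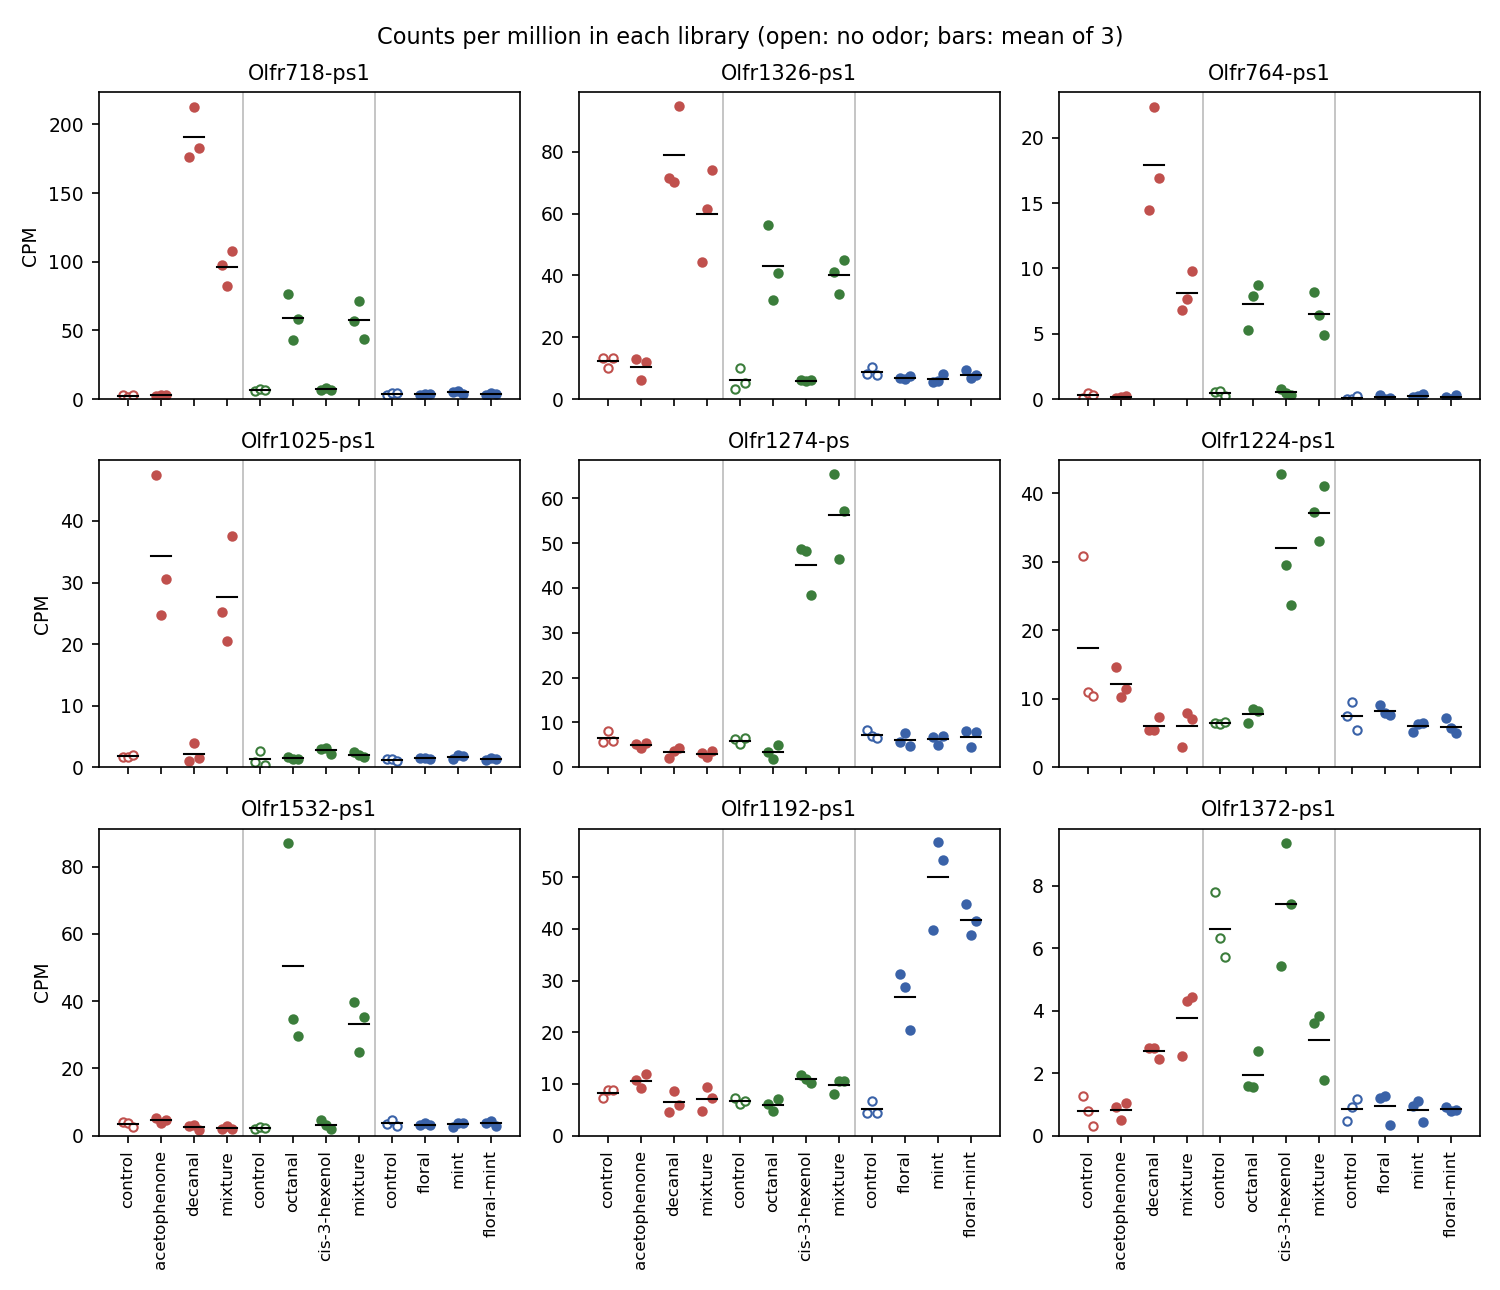
CPM of 9 -ps genes in each of the 36 libraries (linear axis, open circles for no odor, bars at the mean of 3, grey lines between sets). Olfr718-ps1 stands at 176 to 213 CPM with decanal and at 42.8 to 76.5 with octanal, and Olfr1192-ps1 rises in the fragrance groups of the FM set.

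With octanal, an aldehyde with a shorter chain than decanal, 10 of 42 -ps genes were called higher and 4 lower (33.3%). Of all genes 32.3% and of intact receptors 24.2% were called, so the share of -ps genes was near that of all genes. Olfr718-ps1 rose again, from 5.9, 7.03 and 6.23 CPM in controls to 76.5, 42.8 and 58.3 (log2 change 3.21, SE 0.229, edgeR adjusted p 2.06e-07). Olfr1532-ps1 read 1.83, 2.66 and 2.3 CPM in controls and 87.1, 34.6 and 29.5 with octanal (4.48, SE 0.411, edgeR adjusted p 2.65e-06). It is protein coding in both annotations, and its near-identical copy Olfr707 rose from 0.925 to 14.8 CPM (4.02, SE 0.343). Olfr764-ps1 read 0.545, 0.649 and 0.197 CPM in controls and 5.31, 7.86 and 8.7 with octanal (3.93, SE 0.406, edgeR adjusted p 8.06e-06). The groups do not overlap for any of these genes.

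Olfr766-ps1 (4.97), Olfr1326-ps1 (2.81) and Olfr1174-ps (3.3) were also higher with octanal, as were Olfr1175-ps (2.43), Olfr175-ps1 (1.25), Olfr709-ps1 (1.51) and Olfr1117-ps1. Olfr1174-ps and Olfr1175-ps are near-identical copies, with control means of 0.714 and 0.214 CPM. Scaled to the median receptor gene, Olfr709-ps1 lost its call (adjusted p 0.0528). It also lost the call in 4 of 6 omissions of a control or octanal library (adjusted p 0.0592 to 0.109). Olfr1175-ps lost its call without octanal replicate 1 (adjusted p 0.0869), and Olfr175-ps1 without control replicate 3 (0.0593) or octanal replicate 1 (0.109). Decanal and octanal each raised Olfr718-ps1, Olfr764-ps1, Olfr766-ps1 and Olfr1326-ps1, each against the controls of its own set. A test between the aldehydes would cross batches and was not made.

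Olfr1117-ps1, whose stop codon is shown above, had 0 counts in all 3 OC controls and read 0.701, 0.177 and 0.648 CPM with octanal. That is at least 2.93-fold higher than the level of 3 counts per control library (edgeR adjusted p 0.00313). Olfr1117-ps1 passed the filter on low counts only through octanal and mixture libraries, so its p is a description. With the octanal-hexenol mixture it read 1.12, 1.2 and 0.698 CPM, at least 5.79-fold higher by the same measure. Both of its intact copies are its neighbours by number and rose with octanal, Olfr1118 from 1.68 to 11.7 CPM and Olfr1116 from 1.26 to 14.1. The share of reads that fit both the pseudogene and a copy was not tested.

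Lower with octanal were Olfr1372-ps1, Olfr329-ps, Olfr753-ps1 and Olfr1274-ps. Olfr329-ps read 14.6, 8.33 and 12.4 CPM in controls and 6.11, 5.73 and 7.62 with octanal (-0.86, SE 0.234, edgeR adjusted p 0.011). The polymorphic pseudogene Olfr753-ps1 went from 0.545, 0.413 and 0.525 CPM (11, 7 and 8 counts) to 0.1, 0.0591 and 0 (-3.06, SE 0.891, edgeR adjusted p 0.016). Its intact copy Olfr92 was not called (0.57, SE 0.524). Olfr1274-ps fell from 6.2, 5.2 and 6.43 CPM to 3.35, 1.95 and 4.97 (-0.79, SE 0.256, edgeR adjusted p 0.0276). Its call was lost in 4 of 6 omissions of a control or octanal library (adjusted p 0.0759 to 0.0867). Olfr329-ps lost its call without control replicate 1 (adjusted p 0.0626), and Olfr753-ps1 without octanal replicate 3 (adjusted p 0.0625).

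Olfr1372-ps1, a transcribed pseudogene, moved in opposite directions with the aldehydes. In the OC set it read 7.78, 6.32 and 5.71 CPM in controls and 1.6, 1.54 and 2.7 with octanal (-1.76, SE 0.334, edgeR adjusted p 0.00101). In the AD set it read 1.27, 0.794 and 0.304 CPM in controls and 2.81, 2.81 and 2.46 with decanal (1.76, SE 0.466, edgeR adjusted p 0.0153). The control means differed between sets, at 0.79 CPM in AD, 6.6 in OC and 0.84 in FM. Its intact copy Olfr1383 rose in both, from 2.16 to 70.9 CPM with decanal (5.04, SE 0.201) and from 1.7 to 57.4 with octanal (5.07, SE 0.259). In GENCODE vM21 Olfr1372-ps1 lies within the span of the long noncoding gene Gm26551 (chr11:51949882-52269514) on the same strand. Gm26551 is not among the gene identifiers in the count files, so it could not be analysed. The red blood cell and bone markers given above for the OC set were also high in its controls and low with octanal. They were low with cis-3-hexenol too, where Olfr1372-ps1 read 5.42, 9.37 and 7.4 CPM. In the AD set red blood cell markers summed to 23300 to 25400 CPM with decanal and 9360 to 12400 in controls. Bone and osteoclast markers there summed to 1060 to 1210 and 933 to 1090 CPM. The relation of Olfr1372-ps1 to these markers was not tested.

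With cis-3-hexenol, a leaf alcohol, 5 of 42 -ps genes were higher and none lower, where 5.74% of all genes and 7.93% of intact receptors were called. Olfr1274-ps read 6.2, 5.2 and 6.43 CPM in controls and 48.7, 48.2 and 38.5 with cis-3-hexenol (log2 change 2.93, SE 0.24, edgeR adjusted p 6.33e-06). By p it was the 5th of 900 receptor genes tested. Olfr1224-ps1 read 6.45, 6.26 and 6.56 CPM in controls and 42.8, 29.5 and 23.7 with the odor (2.32, SE 0.208, edgeR adjusted p 1.67e-05), the 7th by p. Olfr175-ps1 read 4.96, 4.49 and 3.81 CPM in controls and 42.4, 21.4 and 20.9 with the odor (2.67, SE 0.367, edgeR adjusted p 0.000883). No odor library of these 3 genes overlapped a control. Also higher were Olfr766-ps1 (4.13, SE 0.588) and Olfr1174-ps (3.02, SE 0.453). Olfr764-ps1, the copy of Olfr766-ps1, was not called (0.15, SE 0.466), and the difference between the copies was not tested. The median intact receptor was 0.45 higher on the log2 scale with cis-3-hexenol, and all 5 genes stayed called when libraries were scaled to the median receptor.

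The octanal-hexenol mixture raised 10 of 42 -ps genes and lowered 1, where 32.5% of all genes and 23.9% of intact receptors were called. Olfr1274-ps read 65.3, 46.4 and 57.2 CPM with the mixture (3.24, SE 0.243, edgeR adjusted p 3.14e-07) and Olfr718-ps1 read 56.8, 71.6 and 43.7 (3.17, SE 0.228, edgeR adjusted p 2.57e-07). Olfr1224-ps1 read 37.3, 33.0 and 41.0 CPM (2.53, SE 0.209, edgeR adjusted p 1.03e-06). The others were Olfr1532-ps1 (3.88), Olfr766-ps1 (5.45), Olfr764-ps1 (3.77), Olfr1326-ps1 (2.7), Olfr175-ps1 (3.08), Olfr1174-ps (3.55) and Olfr1117-ps1. Olfr1372-ps1 was lower, at 3.61, 3.84 and 1.77 CPM (-1.11, SE 0.32, edgeR adjusted p 0.0147). That call was lost without control replicate 1 (adjusted p 0.0591) or mixture replicate 3 (0.0664).

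Against octanal alone, the mixture was higher for Olfr1274-ps (4.03, SE 0.255, edgeR adjusted p 6.45e-07) and Olfr1224-ps1 (2.27, SE 0.206, edgeR adjusted p 4.37e-05). They were the 1st and 3rd of 900 receptor genes by p, where 0.0715% of all genes and 1.28% of intact receptors were called. Against cis-3-hexenol alone 5 -ps genes were higher and 1 lower, where 12.9% of all genes and 15.3% of intact receptors were called. The 5 were Olfr718-ps1, Olfr764-ps1, Olfr1326-ps1 (2.74, SE 0.306), Olfr1532-ps1 (3.34, SE 0.383) and Olfr766-ps1 (1.33, SE 0.417), and the lower one was Olfr1372-ps1 (-1.27, SE 0.318). No -ps gene was called for the interaction by edgeR, where 0.0869% of all genes and 0.816% of intact receptors were called. At an unadjusted p under 0.05 there were 5, and DESeq2 called 2.

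The fragrances raised few -ps genes. Floral raised 3 of 44, where 14.0% of all genes and 11.5% of intact receptors were called. Mint raised 2, where 11.2% and 14.3% were called, and Floral-Mint raised 2, where 9.64% and 13.4% were called. No -ps gene was called lower. Olfr1192-ps1 rose in all 3 blends. It read 4.38, 6.65 and 4.27 CPM in controls, 31.3, 28.8 and 20.5 with Floral (log2 change 2.4, SE 0.195, edgeR adjusted p 2.84e-06) and 39.8, 56.8 and 53.3 with Mint (3.29, SE 0.197, edgeR adjusted p 8.23e-08). With Floral-Mint it read 44.8, 38.9 and 41.5 CPM (3.03, SE 0.196, edgeR adjusted p 1.91e-07). Its near-identical copy, the pseudogene Olfr475-ps1, was at 0.103 CPM in controls and not tested.

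Olfr175-ps1 read 5.48, 6.65 and 4.31 CPM in controls, 13.7, 20.2 and 15.9 with Floral (1.6, SE 0.208, edgeR adjusted p 0.000243) and 14.2, 9.82 and 8.13 with Floral-Mint (0.97, SE 0.21, edgeR adjusted p 0.0093). Without control replicate 3 its Floral-Mint call was lost (adjusted p 0.0546), which left 1 gene called. With Mint it read 8.14, 8.57 and 8.99 CPM and was not called. Olfr1369-ps1 read 4.52, 5.07 and 6.54 CPM in controls and 8.14, 9.48 and 12.2 with Floral (0.89, SE 0.175, edgeR adjusted p 0.00496). Olfr237-ps1 was uneven under Mint, at 8.24, 62.2 and 20.6 CPM beside 1.57, 1.99 and 3.07 in controls (3.79, SE 0.55, edgeR adjusted p 0.000516). With Floral-Mint it read 4.98, 5.64 and 5.89 CPM, above the controls but not called (1.32, SE 0.559). Without mint replicate 3 the Mint count was 4 in place of 2.

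Floral-Mint was lower than Floral for 1 -ps gene, Olfr1369-ps1, at 4.28, 3.87 and 4.67 CPM beside 8.14, 9.48 and 12.2 (-1.21, SE 0.178, edgeR adjusted p 0.0066). Of all genes 0.12% and of intact receptors 2.13% were called there, and the call was lost without floral-mint replicate 2. Against Mint no -ps gene was called by edgeR, beside 0.104% of all genes and 2.13% of intact receptors. At an unadjusted p under 0.05 there were 6, and DESeq2 called 1. The interaction was negative for 3 of 44, so the blend was below the sum of the 2 component log2 changes, which is the product of their folds. These were Olfr1192-ps1 (-2.65, SE 0.259, edgeR adjusted p 5.95e-05), Olfr1369-ps1 (-1.56, SE 0.252, edgeR adjusted p 0.00382) and Olfr175-ps1 (-1.27, SE 0.292, edgeR adjusted p 0.0289). In mean CPM with Floral, Mint and Floral-Mint, Olfr1192-ps1 stood at 26.8, 50.0 and 41.8 and Olfr175-ps1 at 16.6, 8.57 and 10.7. Their blend means lay between those of the components. Only Olfr1369-ps1, at 9.93, 6.81 and 4.28, was lower in the blend than in both components. Of all genes 3.62% and of intact receptors 5.79% were called. Without mint replicate 3 the count was 5. The blend was given at the same 10 µL as each fragrance, and the part of dose in the interaction was not tested.

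Each called -ps gene was set beside its intact neighbours by number, the nearest protein-coding receptors without -ps on the same chromosome within 5 numbers. Receptor numbers largely follow gene order in the genome, so these are mostly genes of the same cluster. Of 58 calls of a -ps gene by an odor, 46 had at least 1 neighbour that was tested. A neighbour was called in the same direction in 13 of the 46, in the opposite direction in 0, and no tested neighbour was called in 33. Of 72 neighbour tests 15 were calls. As background, 7.93% to 24.2% of intact receptors were called in each odor comparison, and most calls had more than 1 neighbour that could be tested, so the 13 are a description. The 13 include Olfr1025-ps1 with Olfr1026, Olfr896-ps1 with Olfr895 and Olfr898, and Olfr1224-ps1 with Olfr1225 under cis-3-hexenol. Olfr1225 rose there from 0.894 to 7.9 CPM (3.14, SE 0.341, edgeR adjusted p 0.000114). Also among the 13 are Olfr364-ps1 with Olfr365 and Olfr1117-ps1 with Olfr1116 and Olfr1118, near-identical copies that can share counts. The calls of Olfr364-ps1, and that of Olfr1224-ps1 with the AD mixture, were lost without AD control replicate 1. Under decanal Olfr1326-ps1 rose without Olfr1325 (0.42, SE 0.52), and under Mint Olfr1192-ps1 rose without Olfr1189 (-0.01, SE 0.27) or Olfr1193 (-0.52, SE 0.207). Calls of a gene in several odors of a set share their controls, so the 58 are not independent.

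**Figure D4:**
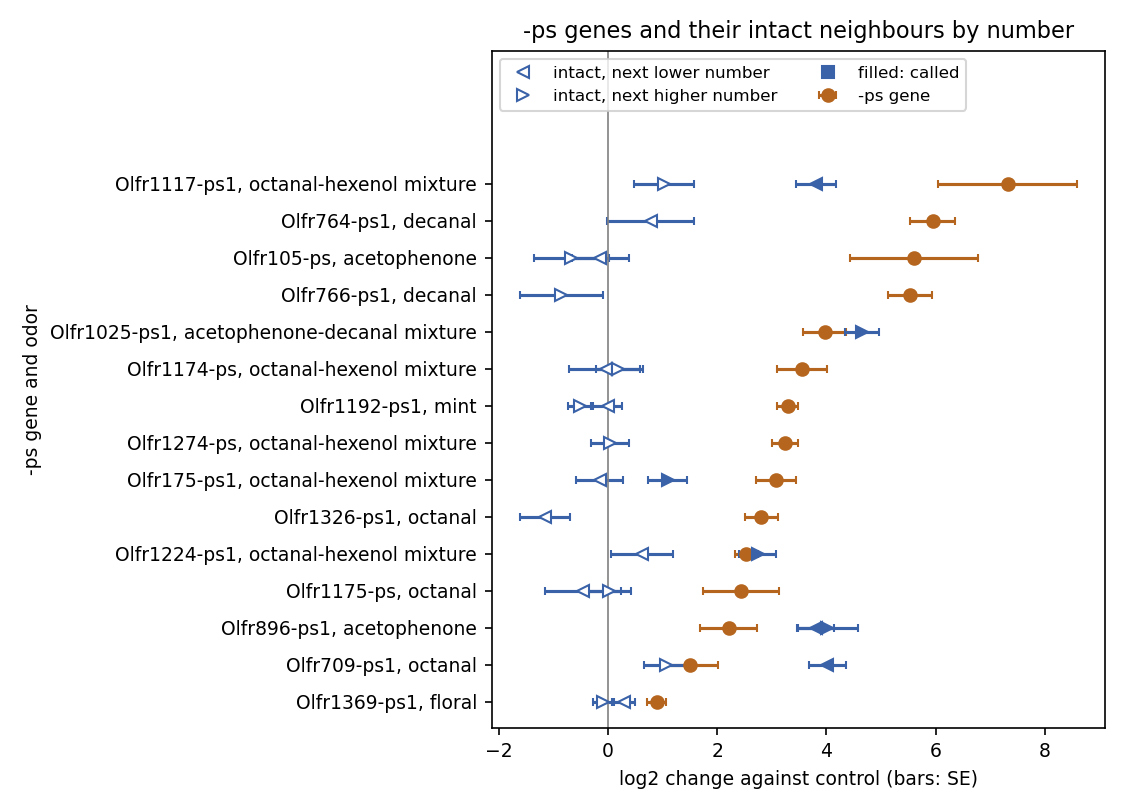
Log2 change of called -ps genes, each in the odor group where its adjusted p was smallest among rises (horizontal axis), beside the changes of its tested intact neighbours by number. At least 1 neighbour of Olfr1025-ps1, Olfr896-ps1, Olfr1117-ps1 and Olfr709-ps1 lies beyond 3, while those of Olfr1192-ps1 and Olfr1326-ps1 stand near or left of 0. Olfr1117-ps1 has 0 counts in its controls, so its own position depends on the prior count.

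The share of receptor counts that fell on -ps genes moved with a few of them. In the AD set it was 4.19%, 3.14% and 2.95% in controls (mean 3.43% ± 0.671) and 7.35%, 8.44% and 7.95% with decanal (7.91% ± 0.543). With decanal Olfr718-ps1 alone held 48.3% of the counts on -ps genes and Olfr1326-ps1 held 20.1%, beside 1.95% and 10.1% in controls. The mixture gave 5.7% ± 0.512 and acetophenone 2.67% ± 0.672. All decanal and mixture libraries lay above the controls, and acetophenone overlapped them. No test was made of these shares, which are sums over the -ps genes.

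In the OC set the share was 3.84% ± 0.296 in controls and 3.77% ± 0.285 with octanal, against 4.94% ± 0.272 under cis-3-hexenol and 5.17% ± 0.329 under the mixture. Octanal overlapped the controls although 10 -ps genes were called higher. All libraries of cis-3-hexenol and the mixture lay above the controls, and Olfr1274-ps held 21.4% of -ps counts with cis-3-hexenol. In the FM set all libraries of Floral (2.91% ± 0.0996) and Floral-Mint (2.88% ± 0.0295) lay below the controls (3.15% ± 0.109), and Mint (3.36% ± 0.522) overlapped them. Annotated pseudogenes alone held a lower share of receptor counts than the controls of the set in every library of all 9 odor groups. In the OC set their share was 0.544% to 0.724% in controls and 0.143% to 0.184% with octanal. Under cis-3-hexenol it was 0.304% to 0.452%, and under the octanal-hexenol mixture 0.185% to 0.206%. It was 0.375% to 0.464% in AD controls and 0.14% to 0.351% over the odor libraries of that set, and 0.341% to 0.429% in FM controls and 0.205% to 0.272% over the fragrance libraries. Receptor symbols as a whole took more of the library in every odor group, for example 0.235% to 0.279% of counts in OC controls and 0.499% to 0.736% with octanal, and the part of this in the shares was not tested. Without -ps genes that have a near-identical copy, the shares were lower throughout, at 1.73% in AD controls and 6.15% with decanal. On that measure octanal, at 2.16%, stood above its controls at 1.89%, and Mint, at 1.04%, stood below its controls at 1.53%, both the reverse of the order over all -ps genes.

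**Figure D5:**
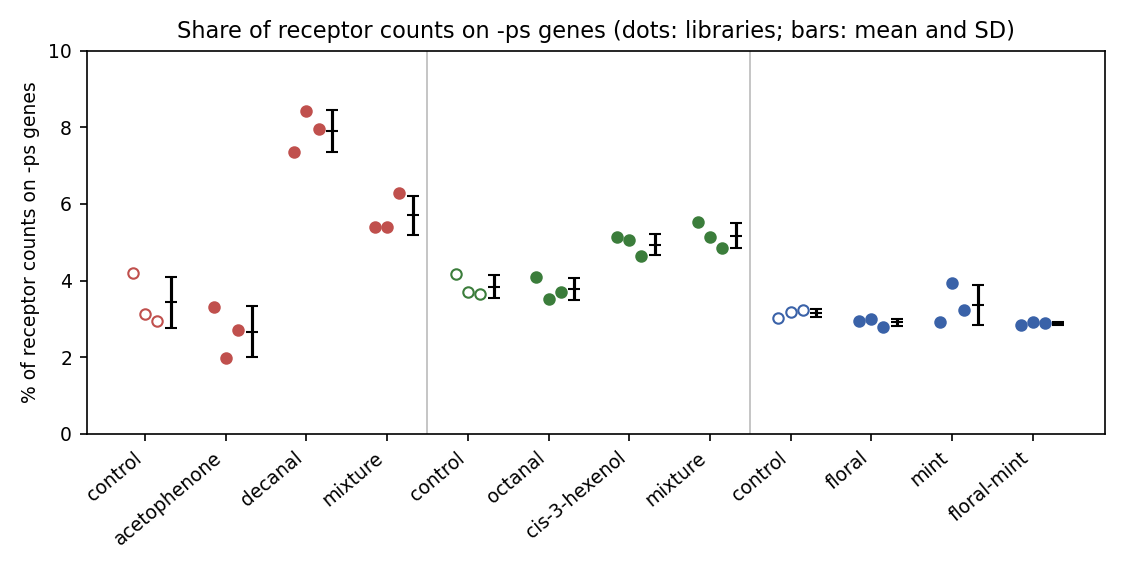
Percent of the counts on olfactory receptor genes that fell on -ps genes, per library (dots, open for no odor) with the mean and SD of each group (bars), for the 3 sets in turn. Decanal stands highest, at 7.35% to 8.44%, and the fragrance set stays between 2.8% and 3.94%.

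Genes that act on receptor choice and on broken transcripts were counted from lists. The list of receptor choice and feedback had 16 genes, all tested. Between 4 and 9 of them were higher in each odor comparison and 0 to 4 lower, where 5.49% to 32.5% of all genes were called. The list medians were 0.11 to 0.46 on the log2 scale. Over all genes tested the medians were -0.05 to 0.05. Adcy3 and Rtp1 are also among the mature neuron markers, whose sum was higher in every odor group. The part of that rise in these counts was not tested. Of 14 genes of nonsense-mediated decay, the pathway that degrades transcripts with early stop codons, 0 to 2 were higher and 0 to 5 lower, with medians of -0.23 to 0.13. In the decanal and AD mixture groups 1 was higher and 5 lower, where 22.3% and 21.4% of all genes were called. The OC mixture gave 1 and 4 and octanal 2 and 3, where 32.5% and 32.3% of all genes were called.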

How the data were processed

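RNA from pS6 immunoprecipitation of olfactory epithelium was measured in 36 libraries. The authors deposited expected counts for each gene. Of the genes with a value above 0 in any of the 36 libraries, 17.0% to 25.1% had a fractional value in a given library. All values were rounded for the tests. The tools named in the submitters' processing notes are STAR 2.7.10b, Salmon 1.10.1 and R 4.4.2, with the build GRCm39. The gene annotation and the step that gave the counts are not given in the sources used here. An expected count can hold part of a read that matches more than 1 gene, so near-identical receptors are not fully separate measurements. Symbols, classes, transcripts and positions come from GENCODE vM21 (GRCm38), a different build from that of the counts, and 52029 of 57010 identifiers were named. Unnamed identifiers held 0.284% to 0.650% of a library's counts.

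Each set was fitted alone with its 4 groups in R 4.3.3 with edgeR 4.0.16: filterByExpr (minimum count 10, minimum total 15), TMM scaling, glmQLFit and glmQLFTest, 2-sided, with Benjamini-Hochberg adjustment across every gene tested and a threshold of 0.05. Standard errors (SE) come from the log2 change and its F statistic. CPM uses TMM-scaled library sizes, and means are given ± SD over n = 3 libraries unless stated. Near-identical copies were found with blastn 2.17.0 (at least 95% identity over at least 200 bases of transcript). The stretch may lie outside the coding frame, so such a copy need not be a duplicate of the whole gene. For example, Olfr263 counts as a copy of Olfr1369-ps1, although their strongest match was 88.0% identical. Alternatives were DESeq2 1.42.0, its size factors, no filter, scaling to the median receptor gene, a replicate block, leaving out each library, leaving out genes with copies, and shares per kilobase. The fit was tested on simulated data.

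Every -ps gene called in an odor comparison is named, with library values for up to 3 in each direction. The 8 most abundant in controls and those called between mixture and component or for the interaction are also named, with their intact neighbours and copies. The -ps genes, lists and comparisons were chosen with earlier results of these data known. The labels call the libraries of a group biological replicates. No pair of libraries agreed within sampling noise. Promoter sequences were not used.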

Additional observations from a re-analysis of the deposited data

Results flagged for a closer look

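Single odors moved 3 -ps genes in opposite directions, with every library on that side of its controls. The difference between odors was not tested in any of them. Olfr1274-ps was higher with cis-3-hexenol (log2 change 2.93) and lower with decanal (-0.97) and with octanal (-0.79), differences of 3.9 and 3.72. Both lower calls of Olfr1274-ps are lost when single libraries are left out, the decanal one in 3 of 6 omissions (adjusted p 0.0516 to 0.109) and the octanal one in 4 of 6 (0.0759 to 0.0867). Olfr1224-ps1 was higher with cis-3-hexenol (2.32) and lower with decanal (-1.53), a difference of 3.85, and its decanal change rests on control replicate 1 of the AD set (-0.83 without it). Olfr1372-ps1 was higher with decanal (1.76) and lower with octanal (-1.76), a difference of 3.52, with control means of 0.79 CPM in the AD and 6.6 CPM in the OC set. Apart from cis-3-hexenol with octanal, these odors belong to different sets, and the set cannot be told apart from the odor.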

How the results depend on the processing

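None of the 58 log2 changes of -ps genes called by an odor reversed under any alternative run. All 58 stayed called with DESeq2's size factors and without a filter on low counts, and 56 when libraries were scaled to the median receptor. DESeq2 called 56 and gave no adjusted p for Olfr364-ps1 with decanal or the AD mixture. Over all omissions of 1 library 304 calls were kept and 44 lost.
Without the filter, the -ps genes called numbered 5 for acetophenone, 4 for Mint, 5 for Floral-Mint, 4 for Floral-Mint against Floral, 1 for Floral-Mint against Mint, and 1 and 4 for the interactions of the AD and OC mixtures. DESeq2 called 4 between the acetophenone-decanal mixture and decanal, 1 for Floral-Mint against Mint, and 1 and 2 for those interactions. Scaling to the median receptor gene gave 1 for the OC interaction. Libraries with the same replicate number did not deviate together (correlations -0.289 to 0.248), so the numbers do not pair the samples. A replicate block gave 1 for the OC interaction in place of 0 and ended the call of Olfr364-ps1 with decanal (adjusted p 0.0508).
Without -ps genes that have a near-identical copy, called genes numbered 3 for decanal, 5 for the AD mixture and 3 for it against acetophenone. They numbered 4 for octanal, 2 for cis-3-hexenol, 4 for the OC mixture, 1 for it against octanal and 2 against cis-3-hexenol. Floral had 1, Mint 0 and Floral-Mint 1, and there were 0 for Floral-Mint against Floral and 1 for its interaction. The shares of receptor counts were then 1.73%, 1.75%, 6.15% and 4.41% in AD controls, acetophenone, decanal and mixture, 1.89%, 2.16%, 2.39% and 2.91% in OC controls, octanal, cis-3-hexenol and mixture, and 1.53%, 1.28%, 1.04% and 1.1% in FM controls, Floral, Mint and Floral-Mint. Per kilobase of exon they were 6.7% for decanal, 4.81% for the AD mixture, 5.81% for cis-3-hexenol, 5.99% for the OC mixture, 3.34% for FM controls, 3.03% in Floral, 2.76% in Mint, 2.63% in Floral-Mint. Fewer genes enter those counts and shares by construction, and the cause of the other shifts was not tested.
Leaving out each library in turn gave 1 to 3 for acetophenone, 5 to 8 for decanal, 1 to 2 for the AD mixture against decanal, 2 to 4 for Mint, 1 to 2 for Floral-Mint and 0 to 1 for Floral-Mint against Floral or Mint. The range was 0 to 1 for the AD interaction (1 without acetophenone replicate 1), 0 to 2 for the OC interaction (2 without octanal replicate 2) and 2 to 5 for the Floral-Mint interaction.
Of the 258 annotated pseudogenes, 146 had no count in any library, so no change in them was detectable at this depth.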
